A study of Mus musculus with 2 samples.

Results

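Gene desert sites were the DNase I hypersensitive peaks on autosomes whose midpoint lay over 200 kb from the body of every protein-coding gene of GENCODE release M21 on mm10, leaving out the first 3.2 Mb of each chromosome. They were taken from the longer of the 2 peak lists that the authors deposited for each library, and the rule uses no measured value. Replicate 1 held 4084 such sites among 124091 autosomal peaks, and replicate 2 held 1944 among 65148. The libraries came from whole thymus of female B6CASTF1/J mice, first-generation hybrids of C57BL/6J and CAST/EiJ, aged 25 days. Each library was made from a separate animal, and both animals formed 1 group with no named treatment. Whole thymus is a mixture of cell types, so a weak site may be open in few cells or slightly open in many, which cannot be told apart. The series has no other condition, so every comparison below is between kinds of site or between the 2 libraries. DNase-seq maps where the enzyme DNase I cuts chromatin; a peak marks a short stretch that is more open than its surroundings. The density that comes with each peak is the authors' own signal value, on a scale that the sources used here do not give, so densities were ranked only within a library. Read depth is unknown for the same reason.

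Distant accessible sites are often enhancers, which bind sequence-specific factors and act on promoters far along the chromosome, or insulator sites bound by CTCF, which anchor chromatin loops. The thymus consists mainly of developing T cells, whose genes are controlled by RUNX, ETS, TCF/LEF, GATA and E-protein factors. Deserts next to developmental genes are known to hold regulatory sequence of those genes. Of the labelled tissue's marker lists, 42 of 50 T-lineage regulators and 37 of 43 T-cell surface and signalling genes had a promoter peak (within 1 kb of the gene start) in both libraries, against 12 of 23 genes of other blood lineages, 20 of 76 neuronal adhesion and synapse genes and 4 of 49 developmental factor genes. The share among all genes is not given here, so these counts compare the chosen lists only. They do not show that T-cell genes stood above genes in general.

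8 sites found in both libraries are printed here because they are among the densest of these, the densest of one of the densest deserts, or, for the last, the farthest from a gene. The sequences are the plus strand of the mouse reference (GRCm38, mm10) over the replicate 1 peak; capitals mark bases that lay inside a footprint, a short protected stretch within a peak, in both libraries. The animals were hybrids, so their CAST/EiJ copies may differ from these letters.
Sox4 desert, chr13:28512601-28512840: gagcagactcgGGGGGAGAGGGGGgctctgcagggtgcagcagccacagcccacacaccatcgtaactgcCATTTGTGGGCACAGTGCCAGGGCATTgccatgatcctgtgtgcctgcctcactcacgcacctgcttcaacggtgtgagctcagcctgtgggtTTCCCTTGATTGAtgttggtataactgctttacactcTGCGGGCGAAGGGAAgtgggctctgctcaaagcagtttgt
Bcl11b-side desert, first site, chr12:107160221-107160460: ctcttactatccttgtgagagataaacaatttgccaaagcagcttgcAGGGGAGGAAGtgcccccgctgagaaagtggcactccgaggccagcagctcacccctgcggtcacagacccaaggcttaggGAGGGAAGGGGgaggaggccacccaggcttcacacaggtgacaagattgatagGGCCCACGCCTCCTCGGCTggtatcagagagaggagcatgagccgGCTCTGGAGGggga
Bcl11b-side desert, second site, chr12:107086341-107086540: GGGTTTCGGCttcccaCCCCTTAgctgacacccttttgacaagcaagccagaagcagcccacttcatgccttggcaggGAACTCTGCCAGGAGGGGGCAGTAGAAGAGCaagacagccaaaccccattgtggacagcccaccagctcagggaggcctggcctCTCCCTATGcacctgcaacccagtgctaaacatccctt
Satb1 desert, chr17:52351261-52351520: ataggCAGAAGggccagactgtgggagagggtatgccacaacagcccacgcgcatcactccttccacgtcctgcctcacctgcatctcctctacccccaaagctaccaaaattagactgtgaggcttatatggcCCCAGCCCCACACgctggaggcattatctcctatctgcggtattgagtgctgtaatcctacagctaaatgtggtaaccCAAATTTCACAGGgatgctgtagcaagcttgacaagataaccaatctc
Foxo1 desert, chr3:52647961-52648200: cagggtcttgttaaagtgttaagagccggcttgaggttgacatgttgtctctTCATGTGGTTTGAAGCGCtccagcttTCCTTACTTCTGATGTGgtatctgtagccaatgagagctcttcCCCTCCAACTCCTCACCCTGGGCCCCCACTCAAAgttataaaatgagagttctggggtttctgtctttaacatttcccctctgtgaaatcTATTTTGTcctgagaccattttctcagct
Tox desert, chr4:7455241-7455420: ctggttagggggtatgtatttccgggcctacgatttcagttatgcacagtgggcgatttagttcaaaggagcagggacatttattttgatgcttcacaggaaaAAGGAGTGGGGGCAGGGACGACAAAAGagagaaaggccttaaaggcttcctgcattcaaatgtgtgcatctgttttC
T-cell receptor alpha desert, chr14:53364061-53364240: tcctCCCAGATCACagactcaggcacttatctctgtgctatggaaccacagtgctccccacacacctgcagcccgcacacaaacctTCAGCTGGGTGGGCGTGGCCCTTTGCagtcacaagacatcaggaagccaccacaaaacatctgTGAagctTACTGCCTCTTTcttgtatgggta
Farthest shared site, chr1:102628161-102628340: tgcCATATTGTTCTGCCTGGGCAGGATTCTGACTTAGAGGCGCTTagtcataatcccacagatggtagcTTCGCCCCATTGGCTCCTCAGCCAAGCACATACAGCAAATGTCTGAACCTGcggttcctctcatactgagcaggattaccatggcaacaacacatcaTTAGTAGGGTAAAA

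The Sox4 desert site was the densest desert site found in both libraries by mean rank, with a density of 21.1 in replicate 1 and 32.6 in replicate 2. It lay in an intron of the noncoding transcript 2610307P16Rik, 255 kb from the nearest protein-coding gene, and 68 of its 240 bases were in footprints of both libraries. The Bcl11b-side sites had densities of 13.4 and 18.2 (first) and of 24.6 and 9.15 (second). The second of these lay in an intron of the lincRNA Gm16086 and was the densest of all desert sites of replicate 1. The Satb1 site had densities of 7.08 and 11.6, and lay in no annotated gene. The Foxo1 site (5.78 and 8.03) held the RUNX letters TGTGGTT within a footprint of both libraries. The Tox site (12.3 and 11.1) held a TCF/LEF match, CTTTGAA on the minus strand, in no footprint shared by both libraries. The T-cell receptor alpha site (7.83 and 9.02) overlapped 46 exonic bases of the variable segment Trav13n-4 and held the E-box CAGCTG within a footprint of both libraries. The farthest site found in both libraries lay 2140 kb from Cdh20, its nearest protein-coding gene, while the farthest of replicate 1 alone lay 2287 kb from a gene. Its density was 13.8 in replicate 1, at percentile 95.4 of that library, and 2.66 in replicate 2, at percentile 76.2.

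The 10 densest shared sites include the Sox4, Tox and both Bcl11b-side sites above. Of these 10, 3 lay in the desert from Vrk1 to 3110018I06Rik, and the third of them, at the other end of it and 234 kb from Vrk1, had densities of 10.7 and 14.7. One lay beside Slc7a11, a cystine transporter gene (18.7 and 17.4), with 70.6% of its bases repeat-masked. One lay 225 kb from Pcmtd1 in the desert to Sntg1 (22.3 and 12.1) and held SP/KLF letters, GGGCGG, within footprints of both libraries. Another lay in the desert between the predicted gene Gm5426 and Btg1, an anti-proliferation gene (9.58 and 12.2), and another in that between Mmadhc, a cobalamin metabolism gene, and Rnd3 (9.05 and 12.2). The next farthest shared sites, 1875 kb from Pcdh20 and 1827 kb from Cdh20, were near the bottom of both lists, at percentiles of 5.52 or lower, with densities of 0.185 and 0.246 and of 0.206 and 0.168.

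Deserts were poor in open chromatin. Of the 2393 Mb of autosomal sequence past the chromosome starts, 465 Mb (19.4%) lay over 200 kb from every protein-coding gene, in 751 separate deserts. This sequence held 3.29% of the peaks of replicate 1 (95% Wilson interval 3.19 to 3.39) and 2.98% of those of replicate 2 (2.86 to 3.12), for a mean over the libraries of 3.14% ± 0.217 (SD, n = 2). When the list of replicate 1 was reduced by density to the length of that of replicate 2, its share was 1.59%, so that the order of the libraries turned. With the whole lists there were 8.78 desert peaks per Mb in replicate 1 and 4.18 in replicate 2, against 62.3 and 32.8 per Mb outside deserts. The intervals here and below cover counting error only.

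The sites were not spread evenly. In replicate 1, 61 of the 751 deserts held 50% of the sites, and in replicate 2, 41 did. No peak of either library fell in 175 deserts, and 209 deserts held a site found in both libraries. The longest deserts without a peak were 1.85 Mb between Immp2l, a mitochondrial inner membrane peptidase subunit, and Dnajb9, a chaperone of the endoplasmic reticulum. The next was 0.818 Mb between Igfbp3, an insulin-like growth factor binding protein, and Tns3, a focal adhesion protein. The third was 0.796 Mb between the integrin gene Itga1 and Isl1, a LIM-homeodomain factor of neurons and heart. Among the 501 deserts of at least 0.2 Mb, the median was 4.39 peaks per Mb in replicate 1 and 1.69 in replicate 2.

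Satb1, Sox4, Foxo1 and Runx1, all regulators of T-cell development, were among the genes that flank the 10 densest deserts. Deserts were ordered by the mean of their ranks for peaks per Mb in both libraries. The first lay between Satb1, a chromatin organiser needed for thymocyte development, and the potassium channel gene Kcnh8 (chr17:52033291-52402708). It held 79 peaks in replicate 1 and 37 in replicate 2, or 214 and 100 per Mb. The second lay between the predicted gene Gm11361 and Sox4, an HMG-box factor of lymphoid progenitors (chr13:28458135-28748918), and held 45 and 25 peaks. The third lay between the kinase gene Vrk1 and 3110018I06Rik (chr12:106277427-107288631), and held 152 and 69. The next protein-coding gene past 3110018I06Rik is Bcl11b, the zinc-finger factor of T-lineage commitment, whose far flank is known to hold a T-cell enhancer region.

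**Figure D1:**
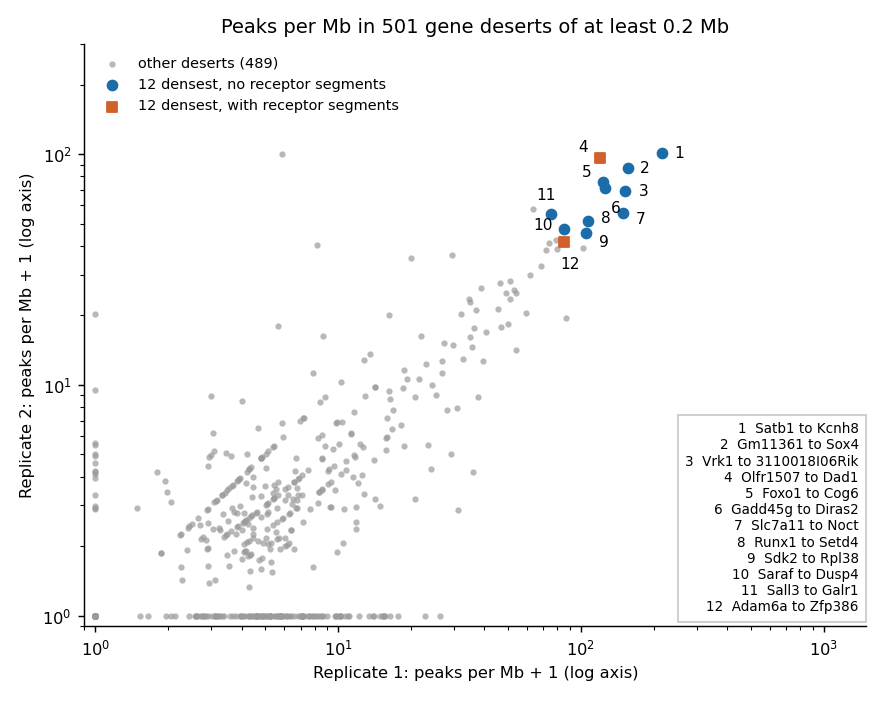
Peaks per Mb (plus 1, log axes) in replicate 1 and replicate 2 for the 501 deserts of at least 0.2 Mb, 1 point each, with the 12 densest numbered by mean rank. The desert from Satb1 to Kcnh8 lies at the top right with 214 and 100 peaks per Mb, while the medians were 4.39 and 1.69.

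The fourth desert, between Olfr1507, an olfactory receptor gene, and Dad1, a subunit of the oligosaccharyltransferase (chr14:52695750-54035478), held 159 and 128 peaks. It is a desert only because GENCODE does not class antigen receptor segments as protein-coding: it contains 125 of them, of the T-cell receptor alpha and delta locus. The fifth lay between Foxo1, a forkhead factor of T-cell homeostasis, and the Golgi gene Cog6, with 28 and 17 peaks. The sixth, between the stress-response gene Gadd45g and the small GTPase gene Diras2, held 32 and 18, and the next gene on its right is the tyrosine kinase gene Syk. The seventh held 49 and 18 peaks between the cystine transporter gene Slc7a11 and the circadian gene Noct, past which lies the ETS factor gene Elf2. The eighth held 38 and 18 between Runx1, a master regulator of blood and T cells, and Setd4, a SET-domain methyltransferase gene. The ninth, between the synaptic adhesion gene Sdk2 and the ribosomal protein gene Rpl38, held 21 and 9. The tenth, between the calcium-entry regulator gene Saraf and the MAP kinase phosphatase gene Dusp4, held 20 and 11. Each of the 10 lay above the 90th percentile of the 501 deserts in both libraries, which was 27.03 and 13.6 peaks per Mb. The 10 were ranked on these same values, so this follows from the choice and nothing is read from it.

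These 10 deserts made up 0.994% of the desert sequence and held 623 (15.3%) of the sites of replicate 1 and 350 (18%) of those of replicate 2. The list depends on length: with a minimum of 500 kb, 2 of the 10 remained among the densest, those from Vrk1 and from Olfr1507, because the other 8 are shorter. With antigen receptor segments counted as genes, an alternative chosen after seeing the data, 9 of the 10 remained and the desert from Sall3 to Galr1 took the free place. By number of peaks the order was different. Tied for the fullest by mean rank were the T-cell receptor alpha desert, with the most peaks in replicate 2, and a desert with the most in replicate 1. The latter, from Adam6a, of a sperm metalloprotease gene family, to the zinc-finger gene Zfp386 (chr12:113746466-115847723), held 177 and 85 peaks and contains 158 segments of the immunoglobulin heavy chain locus. They were followed by the desert on the Bcl11b side and the desert from Sall3 to Galr1 on chromosome 18 with 73 and 53 peaks. The desert from Satb1 to Kcnh8 came after these.

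**Figure D2:**
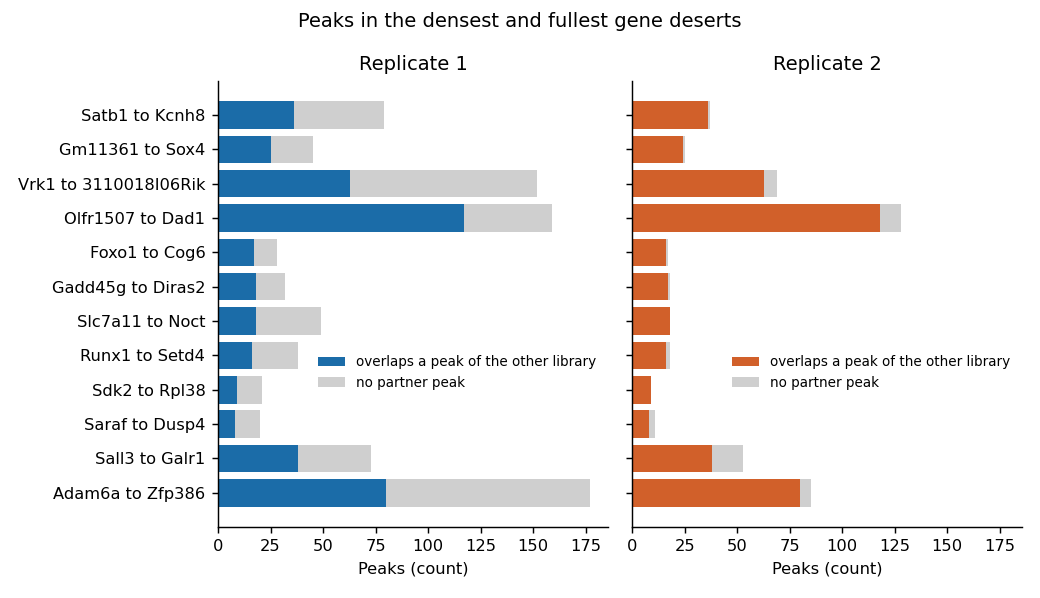
Number of peaks in the 10 densest and 5 fullest deserts (12 in all, since 3 are both), by library, with bars split into peaks that overlap a peak of the other library (coloured) and those that do not (grey). Nearly the whole of each replicate 2 bar is coloured, except for the deserts from Saraf to Dusp4 (8 of 11) and from Sall3 to Galr1 (38 of 53).

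Each of the 4 densest deserts was split into 5 equal stretches, and in 3 of them the same stretch held the most peaks in both libraries. In the desert from Vrk1 to 3110018I06Rik, the stretch nearest to 3110018I06Rik, on the Bcl11b side, held 71 of 152 peaks of replicate 1 (46.7%) and 32 of 69 of replicate 2 (46.4%). The shared sites of this desert lay between 641 and 1617 kb from Bcl11b. In the desert from Satb1 to Kcnh8, the stretch beside the last one on the Kcnh8 side held most, with 30 of 79 and 13 of 37 peaks. The shared sites there lay 203 to 518 kb from Satb1, some of them in the lincRNAs Gm19585 (9 sites) and CT033752.2 (7 sites). In the T-cell receptor alpha desert the fullest stretch was also the one beside the last on the right, with 54 of 159 and 56 of 128 peaks. The Sox4 desert had 2 groups, 22 of 45 peaks of replicate 1 in the 2 stretches farthest from Sox4 and 15 in the stretch nearest to it; replicate 2 had 14 and 7 of 25. The fullest stretch there was the one nearest to Sox4 in replicate 1 and the second from the far end, with 9 peaks, in replicate 2.

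**Figure D3:**
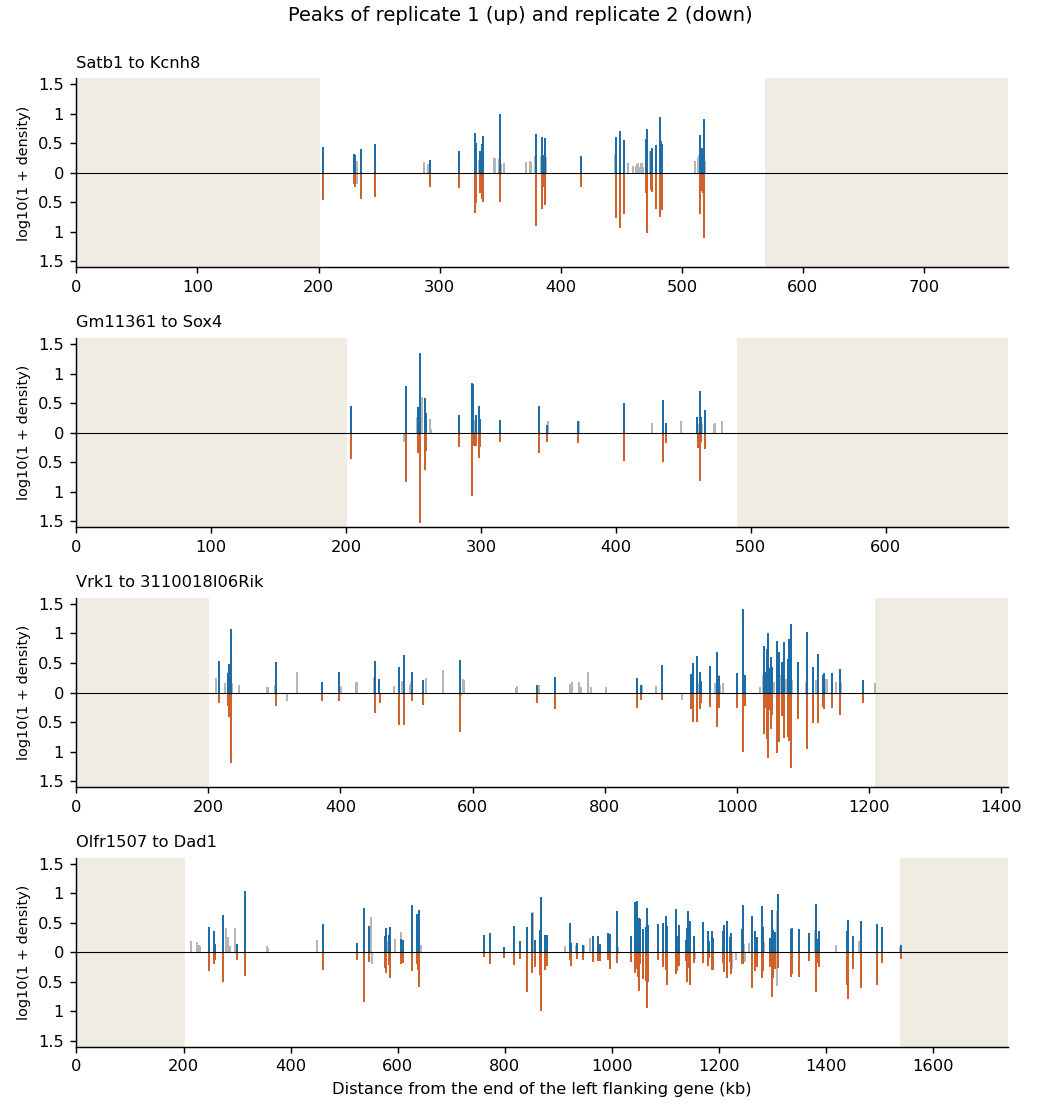
Peaks of replicate 1 (upward) and replicate 2 (downward) along the 4 densest deserts, by distance from the end of the left flanking gene in kb; height is log10(1 + density), coloured lines overlap a peak of the other library, grey lines do not, and the shaded ends are the 200 kb next to the genes. The right end of the desert from Vrk1 to 3110018I06Rik holds 71 of 152 peaks of replicate 1 and 32 of 69 of replicate 2.

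Of 50 autosomal T-lineage regulators, 16 flanked a desert, and 11 of these (68.8%) flanked one with a site found in both libraries, beside 399 of all 1316 flanking protein-coding genes (30.3%). Their 12 deserts of at least 0.2 Mb had a median of 42.0 peaks per Mb in replicate 1 and 16.2 in replicate 2, beside 4.39 and 1.69 over all 501. Summed over the deserts on both sides of a gene, those with the most shared sites were Satb1 (45), Myc, the growth-promoting transcription factor (27), Sox4 (25) and Id2, an inhibitor of E proteins (19). Foxo1 and Gata3, the factor that specifies T cells at several stages, followed with 17 each, those of Gata3 among 43 and 22 peaks in the desert from Celf2. Of 43 T-cell surface and signalling genes, 6 flanked a desert, and their 4 deserts of at least 0.2 Mb had medians of 26.8 and 19.0 per Mb. Ptprc, which encodes CD45, had 26 shared sites in the desert from Nr5a2, and the chemokine receptor gene Cxcr4 had 5. The checkpoint receptor gene Pdcd1 had 2, and the kinase gene Prkcq had 1. Of 23 genes of other blood lineages, 4 flanked a desert, with 3 shared sites beside Ebf1, a B-cell factor, 2 beside Bcl11a and 1 beside Meis1. Their 5 deserts of at least 0.2 Mb had medians of 10.7 and 3.80 per Mb.

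Developmental and neuronal genes flanked deserts more often than the T-cell and blood genes did, and the medians of those deserts were at or below the median of all. Over all genes, 1316 of the 21951 protein-coding genes flanked a desert, a smaller share than in each of the 5 lists. Of 49 developmental factor genes, 29 flanked a desert, and their 25 deserts of at least 0.2 Mb had medians of 4.38 and 1.44 peaks per Mb. The T-box gene Tbx3 and the HMG-box gene Sox6 each had 6 shared sites, Sox2, the stem-cell factor, had 4, and Sox9, the cartilage factor, had 3. Of 76 neuronal adhesion and synapse genes, 62 flanked a desert, and their 75 deserts of at least 0.2 Mb had medians of 3.29 and 1.26. The most shared sites in this list were 36 for Kcnh8, which shares its desert with Satb1, then 11 for Csmd3, a synaptic membrane protein gene, 5 for the protocadherin gene Pcdh17 over 2 deserts, and 4 for the cadherin gene Cdh20, tied with Cdh4 and Flrt2. The lists were chosen with earlier results of these data known.

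Fewer desert sites than other sites were found in both libraries. In replicate 1, 1227 of 4084 (30.04%, 28.7 to 31.5) overlapped a peak of replicate 2 by 1 bp or more, where 47% of all its autosomal peaks did. In replicate 2, 1224 of 1944 (63.0%, 60.8 to 65.1) overlapped a peak of replicate 1, where 89.4% of all did. Replicate 1 has the longer list, so about the same number of shared sites is a smaller share of it. When the list of replicate 1 was reduced by density to the length of that of replicate 2, the shares were 75.5% of 1047 sites and 40.6% of 1944. The order of the libraries thus turned. The share over all autosomal peaks at equal length is not given here, so the turn is not read as particular to desert sites. Counting any base listed at a false discovery rate below 0.05 in the other library as a partner gave 32.9% and 64.6%, where 50.4% and 92.1% of all autosomal peaks had one. Of the desert sites with no partner peak, 4.06% and 4.44% held such a base, against 2.15% and 1.46% of windows moved 2 kb to either side. Of other distal peaks (over 1 kb from every protein-coding start but not in deserts) with no partner, 4.90% and 18.4% did, against 6.81% and 7.92% of moved windows.

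Desert sites were weak, and sharing followed density. The median density was 0.344 in replicate 1 and 0.420 in replicate 2, against 0.857 and 0.966 for all other peaks, and 39.4% and 42.0% of desert sites fell in the lowest density decile of their library. In that decile 4.48% of the 1608 desert sites of replicate 1 and 18.8% of the 816 of replicate 2 were shared. In the highest decile 46 of 47 and 39 of 39 were. Other distal peaks were shared at 42.4% and 88.9%. Weighted to the density deciles of the desert sites, they were shared at 24.1% and 66.8%, on either side of the desert values of 30.04% and 63.0%. In replicate 1, deciles 2 to 9 each had a higher share in deserts than among other distal peaks, for example 22.4% (18.6 to 26.7) against 10.9% in decile 3 and 87.7% (82.8 to 91.3) against 74.3% in decile 8. In replicate 2 the lowest decile had the lower share in deserts, 18.8% (16.2 to 21.6) against 27.5%.

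**Figure D4:**
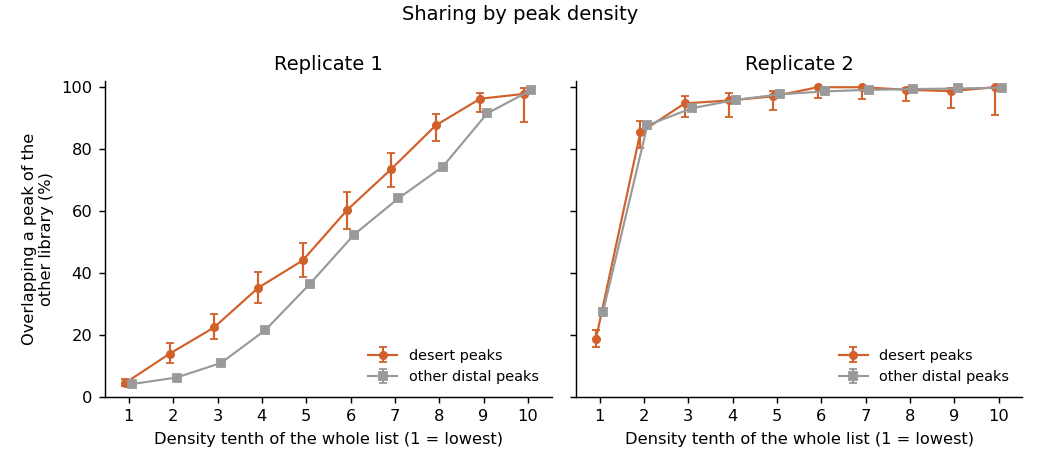
Percentage of peaks that overlap a peak of the other library, by density decile of the whole list of each library (1 is the lowest), for desert peaks (circles) and other distal peaks (squares), with 95% Wilson bars. In replicate 1 the circles lie above the squares from decile 2 to 9; in replicate 2 they separate in the lowest decile, at 18.8% and 27.5%.

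Paired densities were correlated between the animals. Across the 1227 desert sites of replicate 1 with a partner, Spearman's rank correlation of the paired densities was 0.769 and Pearson's r of their log10 values 0.768. All pairs come from the same 2 libraries and share their depth, so the sites are not independent replicates. For the 41133 pairs of other distal peaks, the rank correlation was 0.697 and r was 0.727.

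The share of shared sites also differed with distance. In the 10 densest deserts 52.5% of the sites of replicate 1 and 92.9% of those of replicate 2 had a partner, against 26.0% and 56.4% in the other deserts; the 10 were chosen for many peaks in both libraries, which bears on this share, so nothing is read from it. Sites 200 to 300 kb from a gene were shared at 33.3% and 73.0%, and sites over 1000 kb away at 16.8% and 33.6%. The median density over the same span was 0.413 and 0.504 near the threshold and 0.153 and 0.258 beyond 1000 kb. Sites just inside the threshold, at 200 to 205 kb, numbered 117 and 46, with median densities of 0.349 and 0.453. Those just outside it, at 195 to 200 kb, numbered 122 and 56, with 0.465 and 0.570.

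Sites near antigen receptor segments stood apart from the rest of the deserts. The 347 and 216 sites within 200 kb of a segment were shared at 56.8% and 91.7%, against 27.6% and 59.4% of the others. Median densities were 0.883 and 0.654 near segments and 0.317 and 0.402 at the other sites. How far density bears on this gap in sharing was not tested. Of the sites near segments, 42.4% and 49.1% lay in sequence whose 31-base words occur more than once in the genome (median over the site), against 5.78% and 7.64%. At such sites a read cannot always be placed at one copy. Within 1 kb of the start of a variable segment there were 185 and 138 sites.

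Repeated sequence was common in deserts in general. Multicopy sites made up 8.89% and 12.2% of desert sites and 2.02% and 2.04% of all other peaks. Among other distal peaks they made up 3.90% and 4.63% once weighted to the density deciles of the desert sites. Repeat-masked bases made up 19.7% and 20.8% of desert peak length against 13.6% and 10.03% for all other peaks. The second densest shared site of the Satb1 desert, with densities of 7.86 and 4.70, was wholly repeat-masked, and its words had a median of 103 copies. Among the 720 desert sites of replicate 2 without a partner, 38.4% of bases were repeat-masked and the median width was 103 bp, against 13.6% and 180 bp for the 1224 with one. The part of repeats in the sharing was not tested beyond leaving out multicopy sites, after which 29.5% and 63.6% of sites were shared.

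Most desert sites lay in no annotated gene of any kind (81.5% and 79.6%), where the rule already leaves out every protein-coding body. A lncRNA body covered 15.8% and 16.2%, against 9.41% and 9.43% of all autosomal peaks. The desert sites in a lncRNA body were shared at 38.2% and 78.4%. They were also denser, with medians of 0.434 and 0.564, against 0.323 and 0.396 for desert sites in no annotated gene. The lncRNA with the most shared desert sites was 2610307P16Rik, with 25 over its 426 kb beside Sox4, and next was Gm41335 beside Myc, with 12 over 541 kb. Gm36723 beside Id2 had 8, Gm13218 beside Gata3 had 6 over 6.63 kb, and Gm16084 in the desert on the Bcl11b side had 6 over 13.0 kb. Desert sites were shorter than other peaks, with a median of 160 and 168 bp against 180 and 200, and had less G and C, 50.7% and 52.2% against 53.2% and 55.5%.

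Footprints were called by the authors in each library. At least 1 footprint midpoint fell in 63.5% of desert sites of replicate 1 and 70.7% of those of replicate 2, for a mean over the libraries of 67.1% ± 5.08 (SD, n = 2). Other distal peaks had one in 82.4% and 86.7%, and in 64.0% and 70.5% once weighted to the density deciles of the desert sites. Shared desert sites had one in 91.0% and 88.9%, and unshared ones in 51.7% and 39.7%.

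Motifs were counted on both strands of a 200 bp window centred on each site and on the same windows moved 2 kb to either side. CTCF matches, to a long consensus named here without its letters, were in 5.19% and 2.88% of desert sites and in 0.0367% and 0.0514% of moved windows. RUNX letters (TGTGGTT) were in 9.50% and 11.9% against 4.22% and 4.53%. ETS letters (CAGGAAG) were in 16.4% and 19.1% against 6.43% and 6.43%. The E-box CAGCTG, bound by E proteins, was in 16.8% and 20.6% against 6.67% and 6.12%, and the E-box CACCTG in 25.8% and 29.5% against 10.5% and 10.7%. TCF/LEF letters (CTTTGAA or CTTTGAT) were in 9.21% and 8.95% of desert sites and in 9.43% and 8.87% of moved windows, a gap within the counting intervals. GATA letters (AGATAA) were less frequent, 8.57% and 8.33% against 13.4% and 13.1%, and so were the POU letters ATGCAAAT, 0.906% and 0.463% against 1.75% and 1.39%. Moved windows were not matched for base composition, which bears on the GC-rich letters that were more frequent as well as on AT-rich letters. SP/KLF letters (GGGCGG) were in 6.19% and 6.94% of desert sites, above the 1.31% and 1.44% of moved windows, below the 11.02% and 14.1% of other distal peaks, and far below the 48.4% and 55.4% of promoter peaks. AP-1 (TGACTCA), FOX (TGTTTAC), MYB (CAACTG) and NFY (CCAATCA or CCAATGA) letters were found at between 0.742 and 1.28 times the moved windows. No searched word contains another. Over all autosomal peaks of the same window length, RUNX letters were in 7.65% and 7.76%, ETS letters in 16.3% and 18.9%, TCF/LEF letters in 7.20% and 7.28%, GATA letters in 6.55% and 5.83% and CTCF matches in 5.47% and 4.31%. Among the same peaks the E-box CAGCTG was in 17.0% and 19.8%, and the E-box CACCTG in 24.0% and 26.5%, close to the desert values. A match is a description of the sequence and not a bound site.

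**Figure D5:**
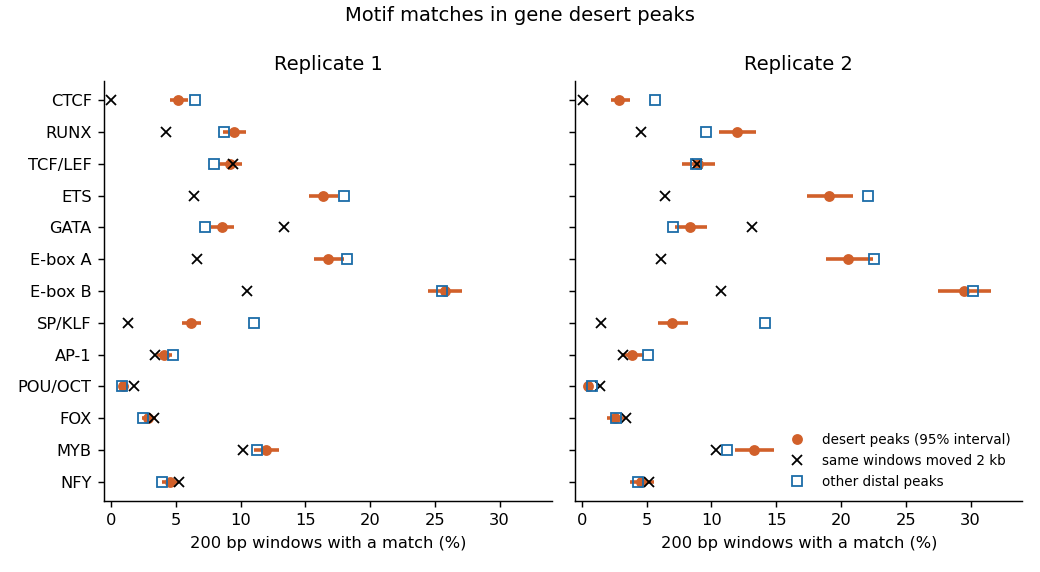
Percentage of 200 bp windows with a match for 13 motifs in each library, for desert peaks (filled circles, with 95% Wilson bars), the same windows moved 2 kb (crosses) and other distal peaks (open squares); E-box A and E-box B are the first and second E-box named in the text. CTCF matches are in 5.19% and 2.88% of desert peaks and nearly absent from moved windows.

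CTCF matches were unequal between the libraries. All 56 shared desert sites with a CTCF match in replicate 1 stood at a higher density percentile in replicate 1 than in replicate 2, with medians of 79.3 and 23.9. Of the 1171 shared desert sites without a match, 76.0% did so, with medians of 56.4 and 38.2. The lists differ in length, which bears on these percentiles, and percentiles at equal length are not given here. Among other distal peaks, 2641 of 2645 shared sites with a CTCF match stood higher in replicate 1, with medians of 85.8 and 41.8. Of the desert sites in the denser 5 deciles of replicate 1, 205 had no partner, and 44 of these (21.5%, 16.4 to 27.6) had a CTCF match, against 54 of 742 (7.28%, 5.62 to 9.37) with a partner. Over all densities the contrast was small, with a match in 5.46% of unshared and 4.56% of shared desert sites of replicate 1. No unshared desert site of replicate 2 had one at any density, 0 of 720, which allows a share of up to 0.417%; only 2 of these were in the denser 5 deciles of replicate 2. In the denser 5 deciles of replicate 1 the shares for other distal peaks were 16.7% of 12031 unshared and 8.03% of 32698 shared sites.

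Motif content differed between deserts. None of the peaks in the deserts of Satb1, Sox4 and the Bcl11b side held a CTCF match in either library. The counts were 0 of 276 peaks of replicate 1 and 0 of 131 of replicate 2, which allows shares of up to 1.09% and 2.29%. These bounds cover matches to the consensus only. Sequences that depart from it were not counted, so CTCF sites are not shown to be absent there. In the immunoglobulin heavy chain desert 37 of 177 (20.9%) and 11 of 85 (12.9%) held a CTCF match, and 35.0% and 50.6% held RUNX letters. Variable segments of one family are copies of each other, so these sites are not independent. In the T-cell receptor alpha desert 19.5% and 20.3% held RUNX letters and 6.29% and 7.03% a CTCF match. ETS letters were in 31.1% and 20% of the peaks of the Sox4 desert and in 15.8% and 20.3% on the Bcl11b side.

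Across libraries the difference was tested by flipping the sign of the difference between desert sites and all other peaks within each library. This exact two-sided permutation test was run for the share shared, median log10 density, median width, footprints per site, median GC and CTCF share. Both libraries had the same sign for each measure, desert sites lower, and the exact p was 0.5 for each, the smallest that this test can give with n = 2, so it could not pass 0.05. The mean difference was -22.4 percentage points in the share shared (-17.6 and -27.2), -0.38 in median log10 density (-0.40 and -0.36), -26 bp in width, -0.809 footprints per site, -2.89 points in GC and -0.882 points in CTCF share.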

How the data were processed

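Data were DNase-seq peaks, footprints and false discovery rates of 2 thymus libraries (replicates 1 and 2, 1 group). Per the deposited notes, the authors called peaks in each library separately from its filtered mm10 alignment; neither labels nor notes name a caller, version or threshold. The deposited signal (density) of a peak has no stated scaling and moves in equal steps within a library. The authors' deposited false discovery rates, used as q-values, list only bases below 0.05. The deposited footprints were used by position only. The deposited lists held 127552 and 67270 peaks (longer) and 90155 and 47784 (shorter).

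Distances were measured from peak midpoints to the 21951 protein-coding gene bodies of GENCODE M21. A desert is a contiguous stretch that meets the rule, ranked by peaks per Mb of non-N sequence among those of at least 0.2 Mb. A shared site overlaps a peak of the other library by 1 bp or more. Copy number is the median genome count of the 31-base words of a site. Sequences came from RefSeq's GRCm38 (mm10). Shares carry 95% Wilson intervals. The upper bound given for a count of 0 is 3 divided by the number of sites, which treats sites as independent. Densities and depth cannot be compared across libraries. No model was fitted; sites are not replicates, so libraries were compared by an exact test only.

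Named deserts were the 10 densest, the 5 fullest and the 3 longest empty ones; named list genes were the 4 with the most shared sites per list, summed over the deserts of a gene; named sites were the 10 densest shared ones, the 2 densest of each of the 5 densest deserts and the 3 farthest, of which the text shows some and 1 of the 10 is not reported here; Bcl11b, Elf2, Syk, Gata3 and the lncRNAs were named after their values were seen. The members, the 5 gene lists and the 13 motifs were chosen with earlier results of these data known. Alternatives were the shorter lists, distances of 100 and 500 kb, other gene types, lists of equal length, single-copy sites, other overlaps and ranks, and each library alone. Overlaps and distances were checked against bedtools 2.31.1, with 0 mismatches. Python 3.11.15, numpy 2.4.6, pandas 2.3.3 and scipy 1.17.1 were used.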

Additional observations from a re-analysis of the deposited data

How the results depend on the processing

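The mean desert share of 3.14% was 2.04% with the shorter lists, 6.34% at 100 kb, 0.857% at 500 kb, 1.03% with lncRNAs counted as genes, 2.29% with lists of equal length and 2.87% for single-copy sequence. With antigen receptor segments counted as genes, an alternative chosen after seeing the data, it was 2.83%. Either library alone gave 2.98% to 3.29% for the share, 30.04% to 63.0% for sharing and 7 to 9 of the 10 densest deserts.

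Of those 10, 3 were among the 10 densest at 100 kb, 2 at 500 kb, 2 with a minimum length of 500 kb and 0 with lncRNAs as genes; these settings change which stretches qualify. The mean share of shared sites, 46.5%, stayed within 1 SD (23.3) in every alternative, and with both libraries kept it ran from 34.2% with lncRNAs as genes to 62.03% with the shorter lists. That SD is the gap between the libraries, and with lists of equal length their order turned (75.5% and 40.6%). RUNX letters were in 6.41% of 100 bp windows instead of 10.7%, and TCF/LEF letters in 7.52% of whole peaks and 4.34% of 100 bp windows instead of 9.08%; shorter windows hold fewer words. No paired analysis between groups was possible because the series has 1 group. Weak sites are limited by a depth that is unknown.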

Other observations

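The 3 deserts with the most sites of replicate 2 that had no partner were picked here after their values were seen. The desert from Meis2, a homeodomain factor of development and leukaemia, to Tmco5 (chr2:116265840-116678690) held 41 peaks in replicate 2 and 2 in replicate 1, and none was shared. The peaks of replicate 2 there had a median density of 0.114, a highest density of 0.216 and a median width of 220 bp. Bases listed below a false discovery rate of 0.05 numbered 13376 in replicate 2 and 147 in replicate 1. In the 200 kb on either side of this desert, replicate 2 had 0 peaks and replicate 1 had 9. Of its 41 peaks, 6 lay in multicopy sequence. Without this desert, 64.3% of the desert sites of replicate 2 were shared instead of 63.0%.

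The desert from Ywhaq to Gm10330 on chromosome 12 held 30 peaks in replicate 2, of which 19 were multicopy and 7 shared, and 15 in replicate 1. The desert from Rps24 to Zmiz1, next to a transcriptional coactivator gene of thymocytes, held 31 peaks in replicate 2, of which 15 were shared, and 34 in replicate 1.

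Chromosomes 5 and 14 differed in how many of their desert sites were shared. On chromosome 5, 12.7% of the sites of replicate 1 and 24.6% of those of replicate 2 had a partner. On chromosome 14, which carries the T-cell receptor alpha locus, 49.0% of 361 and 76.7% of 232 did. The T-cell receptor alpha desert held 159 and 128 of these sites, and 117 and 118 were shared there. The share over all peaks of each chromosome is not given here, so no difference between whole chromosomes is read from these values.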
